A study of Mus musculus with 45 samples.

Results

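The Kruppel-like factors (KLFs) described here are the 10 mouse genes Klf2, Klf3, Klf4, Klf5, Klf6, Klf7, Klf9, Klf10, Klf11 and Klf13. They were taken by Ensembl gene ID from a table of read counts for 37991 genes and followed over all 45 libraries of the series, by genotype, stimulus and time. All 10 passed a filter of at least 1 CPM (a read count scaled to the size of its library) in at least 2 libraries, as did 13851 genes in all. They had 22 to 11998 counts per library.

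KLFs are transcription factors that bind GC-rich and CACCC-type DNA through a set of zinc fingers at the end of the protein. Members differ in what the rest of the protein recruits: Klf3 brings in the corepressor CtBP, Klf9, Klf10, Klf11 and Klf13 bind the corepressor Sin3a, and Klf2, Klf4, Klf5, Klf6 and Klf7 can act as activators. Klf2, Klf4, Klf6 and Klf10 are known as early response genes, transcribed soon after serum, growth factors or cytokines reach a cell, and Klf2 and Klf4 are best known for restraining or tuning inflammatory genes in endothelial cells and macrophages.

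The cells were primary fibroblasts cultured from C57BL/6 mouse embryos (MEFs), which make connective tissue. They were either p53-/- (p53KO), without p53, a regulator that stops division or triggers death when DNA is damaged, or wild type (WT) littermates. All cultures, the 0 h ones included, were kept overnight in low serum. They then received interleukin-1b (IL-1b, 10 ng/ml), tumour necrosis factor (TNF, 10 ng/ml) or lipopolysaccharide (LPS, 100 ng/ml), a bacterial outer membrane component. Each stimulus had its own series at 0, 0.5, 1, 3 and 8 h. A p53KO group held 2 libraries, 1 each from KO-1 and KO-2, which the design text calls biological replicates without saying whether they came from separate embryos, so p-values measure the spread between these 2. A WT group held 1 library. p53 was absent from the cells' whole development and culture, and the study used such cells because they can be grown for longer. The question was whether loss of p53 leaves the inducible genes of these 3 stimuli as they are in WT.

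Gene counts totalled 5619870 to 15355994 per library (median 9347770). Trp53, the gene of p53, stood at 50.9 to 86.6 CPM in KO-1 and 53.9 to 83.2 CPM in KO-2, against 158 to 293 CPM in WT. The 11 fibroblast markers summed to 30600 to 40200 CPM in p53KO and 31000 to 38500 CPM in WT. Among markers of other cells, 6 endothelial genes summed to 12 to 27.5 CPM in p53KO and 10.3 to 21.9 CPM in WT, and 6 epithelial genes to 26.8 to 51.2 CPM in p53KO and 6.31 to 15.4 CPM in WT. The 6 macrophage genes summed to 234 to 438 CPM in p53KO and 346 to 535 CPM in WT. No marker was at 0 in all libraries of a genotype. Libraries stood apart by transcript length: over 9561 genes, the Spearman correlation of a library's deviation from the mean of its own line with transcript length was -0.418 (KO-1) and -0.603 (KO-2) after IL-1b at 0.5 h and -0.493 in WT after IL-1b at 3 h. In the other 42 libraries it lay between -0.24 and 0.404. The highest values were all in TNF libraries: 0.404 in KO-1 at 0 h, 0.369 in KO-1 at 8 h, 0.35 in WT at 0.5 h, and 0.345 and 0.339 in KO-2 at 1 and 0.5 h. That KO-1 library at 0 h is part of the baseline of the TNF changes in p53KO. Some of the results that rest on the IL-1b libraries at 0.5 h in p53KO or at 3 h in WT are also given without them or with that trend removed. The correlations between genes used all libraries of a genotype, these included.

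RefSeq promoters (build GRCm38.p6, from 250 bases before the transcription start to 50 after it) were available for 8 members, all but Klf5 and Klf10. Those of Klf2, Klf6 and Klf4 are shown because the courses of these 3 genes over time were the most alike of the family in p53KO, and that of Klf11 because it fell at 3 h. Each is written in the direction of transcription, and capitals mark every GC box (GGGCGG on either strand), the kind of sequence that KLF and SP proteins bind, and in Klf2 a match to the MEF2 box. Positions are chr8:72318812-72319111 (plus strand), chr13:5861239-5861538 (plus strand), chr4:55532426-55532725 (minus strand) and chr12:24651121-24651420 (plus strand).
Klf2: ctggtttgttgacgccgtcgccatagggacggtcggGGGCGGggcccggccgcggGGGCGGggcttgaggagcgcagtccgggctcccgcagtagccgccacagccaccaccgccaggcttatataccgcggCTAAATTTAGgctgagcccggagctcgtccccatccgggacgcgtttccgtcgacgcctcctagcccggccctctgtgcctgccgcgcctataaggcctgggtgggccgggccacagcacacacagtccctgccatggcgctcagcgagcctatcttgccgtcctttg
Klf6: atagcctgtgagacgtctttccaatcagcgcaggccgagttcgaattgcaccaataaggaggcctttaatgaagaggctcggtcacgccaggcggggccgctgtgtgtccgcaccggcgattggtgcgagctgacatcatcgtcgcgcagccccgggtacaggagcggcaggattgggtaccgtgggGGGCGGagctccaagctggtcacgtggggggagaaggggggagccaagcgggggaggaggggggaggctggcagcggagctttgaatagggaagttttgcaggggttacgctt
Klf4: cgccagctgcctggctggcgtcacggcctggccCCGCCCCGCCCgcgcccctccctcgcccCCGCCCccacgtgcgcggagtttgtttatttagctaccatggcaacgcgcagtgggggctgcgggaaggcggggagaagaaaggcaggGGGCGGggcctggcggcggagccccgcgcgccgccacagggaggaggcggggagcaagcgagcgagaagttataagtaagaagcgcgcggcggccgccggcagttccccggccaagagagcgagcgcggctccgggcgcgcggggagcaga
Klf11: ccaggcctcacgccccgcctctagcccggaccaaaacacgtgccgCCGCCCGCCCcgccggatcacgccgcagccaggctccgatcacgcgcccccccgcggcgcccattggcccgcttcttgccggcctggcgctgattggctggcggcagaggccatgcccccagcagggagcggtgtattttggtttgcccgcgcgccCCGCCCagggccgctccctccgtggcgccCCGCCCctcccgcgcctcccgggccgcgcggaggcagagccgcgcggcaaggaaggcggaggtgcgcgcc
A GC box stood in 7 of the 8 promoters, all but that of Klf9, against 35.7% of all 32851 RefSeq promoters and 62.1% of 13269 promoters of genes tested here. The Klf4 promoter held 4 of them, the Klf11 promoter 4, the Klf2 promoter 2 and the Klf6 promoter 1, and overlapping copies run together as longer stretches of capitals. The GC content of the 8 promoters was 58.3% (Klf7) to 77.7% (Klf11), beside a median of 52.7% over all RefSeq promoters. Its part in the share with a GC box was not tested. CACCC on either strand was found in 5 of 8 (Klf2, Klf3, Klf7, Klf9 and Klf13), against 57.5% of all promoters and 63.6% of promoters of tested genes. TGACG on either strand, a core of the site that CREB and ATF proteins bind, was found in 5 of 8 (Klf2, Klf3, Klf4, Klf9 and Klf13), against 20.8% of all and 30.2% of those of tested genes. The MEF2 box, through which ERK5 signalling is known to act on Klf2 in endothelial cells, matched in the Klf2 promoter alone of the 8, against 3.19% of all and 1.55% of those of tested genes. No promoter of the 8 held a match to the CArG box, which serum response factor binds (1.63% of all, 1.34% of those of tested genes), or to the kappaB site of NF-kappaB (8.46% of all, 10.5% of those of tested genes).

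Before any stimulus Klf6 was the most abundant KLF transcript in both genotypes. Per kilobase of exon it averaged 44.2 ± 2.05 CPM in p53KO (SD, n = 6 libraries at 0 h, 3 from each of KO-1 and KO-2) and 69.1 ± 2.88 CPM in WT (SD, n = 3 libraries). Klf4 followed with 13.5 ± 1.13 CPM per kb in p53KO and 24.9 ± 0.367 CPM per kb in WT. In p53KO the order went on with Klf9 (10.2), Klf13 (9.26), Klf10 (8.27), Klf2 (7.33), Klf7 (6.03), Klf3 (4.78), Klf11 (2.71) and Klf5 (1.56 CPM per kb). From Klf9 to Klf3, neighbours in this order overlapped over the 6 libraries, while the steps from Klf6 to Klf4, Klf4 to Klf9, Klf3 to Klf11 and Klf11 to Klf5 were free of overlap. In WT, Klf13 (11.2 CPM per kb) and Klf2 (10.9 CPM per kb) stood above Klf9 (8.21 CPM per kb).

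**Figure D1:**
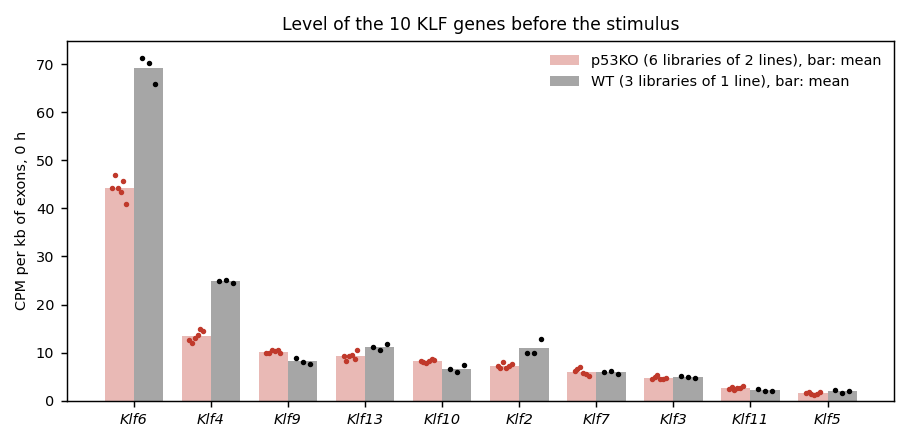
Level of each KLF gene at 0 h in CPM per kilobase of exon, with p53KO (6 libraries) left of WT (3 libraries), bars for the mean and points for single libraries. Klf6 stood at 44.2 in p53KO and 69.1 in WT, and Klf4 at 13.5 in p53KO and 24.9 in WT, with no overlap between the genotypes for either.

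The first comparison asked which KLF genes changed after each stimulus in p53KO MEFs, each time against 0 h of the same series. Neither genotype had an unstimulated library after 0 h. The part of handling and of time in culture in the changes from 0 h was therefore not tested. Calls are at an adjusted p under 0.05 by edgeR's quasi-likelihood test with Benjamini-Hochberg adjustment over the 13851 genes. The changes ran in 2 phases. Klf2 and Klf6 were higher at 0.5 h and Klf2, Klf4, Klf6, Klf7 and Klf10 at 1 h after each stimulus, and by 8 h most of the changed members were below their 0 h level, with Klf10 as the exception. In bulk RNA such a change may be fewer cells with the transcript or less of it per cell, and these cannot be told apart.

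At 0.5 h, 4 of the 10 members were called after IL-1b (2 higher and 2 lower, where 7.39% of all tested genes were called). After TNF 3 were called, all higher (0.751% of all), and after LPS 3, with 2 higher and 1 lower (0.527% of all). At 1 h, 6 members were higher with IL-1b (5.94% of all genes were called and 2.78% were higher), 5 with TNF (5.85% called, 3.05% higher) and 6 with LPS (5.31% called, 2.79% higher), and no member was lower. The median log2 change of the 10 at 1 h was 0.67 with IL-1b, 0.56 with TNF and 0.61 with LPS, beside 0.00199 to 0.00667 over all tested genes. At 3 h the counts were 5 with IL-1b (3 higher, 2 lower, 42.7% of all genes called), 5 with TNF (4 higher, 1 lower, 36%) and 4 with LPS (3 higher, 1 lower, 44.1%), close to the share among all genes. At 8 h, 6 were lower and none higher with IL-1b (24.4% of all genes were called and 11.8% were lower), 6 lower and 1 higher with TNF (28.6% called, 14.1% lower), and 6 lower and 1 higher with LPS (34.2% called, 17.2% lower). The median of the 10 at 8 h was -0.45 with IL-1b, -0.33 with TNF and -0.36 with LPS, beside -0.0247 to -0.00149 over all genes. The 10 members were chosen with earlier results of these data known, so their counts beside the shares of all genes are no test of the family. Of the 61 calls among 120 tests, 17 were lost when 1 or another library was left out, 8 of them also with DESeq2, and the members concerned are named with their values.

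**Figure D2:**
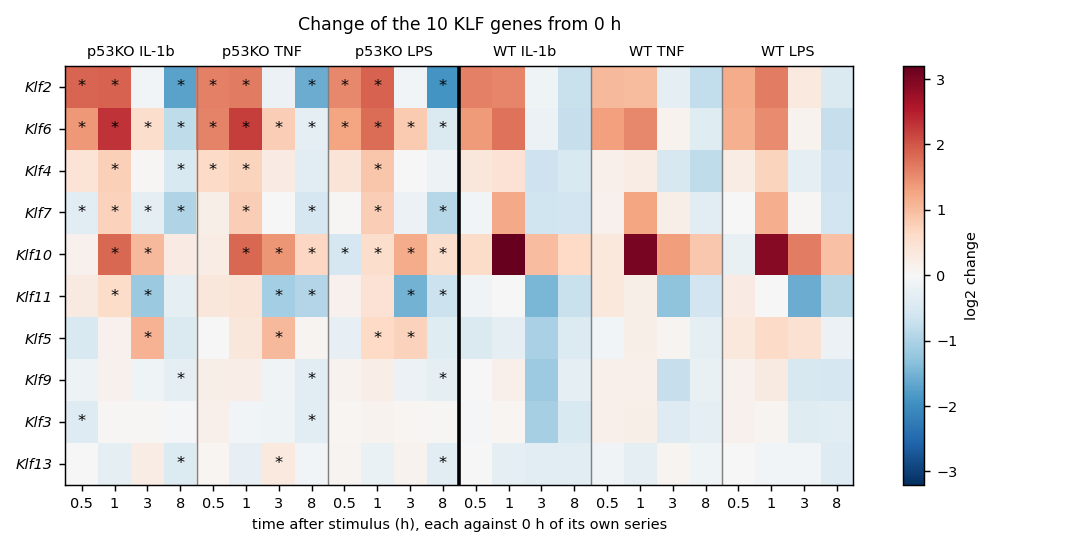
Log2 change of the 10 KLF genes (rows) from 0 h of the same series at each time (columns, hours), for p53KO on the left (2 libraries a group) and WT on the right (1 library a group), on a colour scale from blue (lower) to red (higher). Asterisks mark an adjusted p under 0.05 in p53KO, and WT values carry no test here. Klf10 at 1 h had 1.85 in p53KO and 3.18 in WT for IL-1b, 1.84 in p53KO and 3.04 in WT for TNF, and 0.57 in p53KO and 2.92 in WT for LPS.

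Klf2 (ENSMUSG00000055148, mm9 chromosome 8, 74842932 to 74845555), an activator known for keeping endothelial cells and T cells quiescent, rose within 0.5 h and had fallen below its starting level by 8 h. After IL-1b it stood in KO-1 and KO-2 at 13.3 and 12.6 CPM at 0 h, 51.4 and 43.7 at 0.5 h, 45.5 and 50.5 at 1 h, 12.7 and 11.6 at 3 h, and 4.07 and 3.87 at 8 h. In both lines the 0.5 h and 1 h libraries were far above 0 h, the 3 h libraries were back at it and the 8 h libraries were the lowest. The log2 change was 1.87 at 0.5 h (SE 0.12, adjusted p = 1.73e-11 by edgeR), 1.88 at 1 h (SE 0.12, adjusted p = 6.99e-12) and -1.71 at 8 h (SE 0.18, adjusted p = 1.02e-07). After TNF it peaked at 45.6 and 46.2 CPM at 1 h and ended at 4.22 and 6.16 CPM at 8 h, where 0 h had 15.0 and 14.1 CPM. After LPS it peaked at 42.8 and 53.4 CPM at 1 h and ended at 3.15 and 3.80 CPM at 8 h, where 0 h had 12.7 and 13.4 CPM. All 9 of its calls, those at 0.5, 1 and 8 h after each stimulus, kept their side of the threshold in every alternative run on p53KO.

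Klf6 (ENSMUSG00000000078, mm9 chromosome 13, 5860735 to 5869639), a widely transcribed activator also described as a tumour suppressor, had the largest rise of the family in p53KO and was called at every time after every stimulus. After IL-1b it stood in KO-1 and KO-2 at 194 and 191 CPM at 0 h, 499 and 512 at 0.5 h, 934 and 979 at 1 h, 298 and 266 at 3 h, and 118 and 102 at 8 h. It reached 864 and 877 CPM at 1 h with TNF (194 and 180 CPM at 0 h), and 692 and 719 CPM at 1 h with LPS (206 and 201 CPM at 0 h). Both lines had their peak at 1 h in every series. The log2 change at 1 h was 2.31 with IL-1b (SE 0.08, adjusted p = 6.06e-17 by edgeR), 2.22 with TNF (SE 0.08, adjusted p = 2.22e-16) and 1.79 with LPS (SE 0.08, adjusted p = 1.44e-14). Unlike Klf2 it was still above 0 h at 3 h, by 0.55, 0.78 and 0.83 on the log2 scale after IL-1b, TNF and LPS. At 8 h it was lower by -0.81 with IL-1b, -0.28 with TNF and -0.47 with LPS, and the TNF call at 8 h was lost without 1 or another library.

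Klf4 (ENSMUSG00000003032, mm9 chromosome 4, 55540013 to 55545347), one of the factors that reprogram fibroblasts to pluripotency, and Klf7 (ENSMUSG00000025959, mm9 chromosome 1, 64076021 to 64168856), an activator studied mostly in neurons, rose less. Klf4 stood at 1 h at 63.5 and 73.0 CPM with IL-1b, 65.1 and 71.5 with TNF, and 66.4 and 85.5 with LPS, where 0 h had 38.7 and 41.9, 39.5 and 44.1, and 36.5 and 45.6 CPM. Both lines were above both 0 h libraries in each series. The log2 change at 1 h was 0.76 (SE 0.13, adjusted p = 0.000375 by edgeR) with IL-1b, 0.71 (SE 0.14, adjusted p = 0.0015) with TNF and 0.88 (SE 0.14, adjusted p = 7.49e-05) with LPS. Its other calls, a rise of 0.61 at 0.5 h after TNF and a change of -0.49 at 8 h after IL-1b, were each lost without 1 or another library. At 0.5 h it stood at 55.0 and 53.7 CPM with IL-1b and 54.3 and 56.3 CPM with LPS, above 0 h in both lines. These changes (0.43 and 0.42) did not pass in the fit without a term for the line, and with KO-1 and KO-2 as a replicate block they did (adjusted p = 0.00367 and 0.0155 by edgeR). The same block called Klf4 higher at 3 h after TNF (0.26, adjusted p = 0.046) and lower at 8 h after TNF (-0.35, adjusted p = 0.0114).

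Klf7 stood at 80.0 and 82.7 CPM at 1 h with IL-1b, 79.7 and 92.2 with TNF, and 84.4 and 84.4 with LPS, where 0 h had 49.9 and 46.9, 57.0 and 42.1, and 53.3 and 45.2 CPM. Its rise was of like size after the 3 stimuli, with log2 changes of 0.75, 0.79 and 0.78 (SE 0.10 each, edgeR adjusted p = 4e-06, 2.78e-06 and 3.59e-06). At 8 h it was below 0 h after each stimulus, by -0.97 with IL-1b (24.9 and 24.6 CPM), -0.55 with TNF (34.4 and 33.0 CPM) and -0.92 with LPS (26.1 and 25.7 CPM). It was also called lower after IL-1b at 0.5 h (-0.37) and 3 h (-0.28), but both calls were lost without any 1 of the libraries concerned. The 0.5 h value became -0.15 (adjusted p = 0.346 by edgeR) once the trend on transcript length and GC content was removed from each library. Klf3 was called lower at the same time (-0.42, SE 0.09, adjusted p = 0.00686), and that call held with the trend removed but was lost without the 0 h library of KO-1 or the 0.5 h library of KO-2.

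Klf10 (ENSMUSG00000037465, mm9 chromosome 15, 38221219 to 38230464), a Sin3a-binding repressor first found as an early gene of TGF-beta signalling, responded at 1 h rather than 0.5 h and was the member that stayed up longest. After IL-1b it stood in KO-1 and KO-2 at 34.9 and 34.4 CPM at 0 h, 39.8 and 37.0 at 0.5 h, 125 and 125 at 1 h, 66.3 and 76.4 at 3 h, and 42.4 and 40.5 at 8 h. After TNF it stood at 33.1 and 35.0 CPM at 0 h, 39.7 and 40.1 at 0.5 h, 115 and 129 at 1 h, 85.2 and 95.9 at 3 h, and 51.8 and 57.0 at 8 h. The peak was thus at 1 h after both cytokines. After LPS it stood at 33.5 and 36.4 CPM at 0 h, 23.4 and 25.2 at 0.5 h, 48.8 and 55.0 at 1 h, 67.6 and 92.1 at 3 h, and 52.5 and 51.4 at 8 h. The LPS series had its highest libraries at 3 h instead, with the 1 h libraries below them in both lines.

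The log2 change of Klf10 at 1 h was 1.85 with IL-1b (SE 0.11, adjusted p = 5.88e-13 by edgeR), 1.84 with TNF (SE 0.11, adjusted p = 2.1e-12) and 0.57 with LPS (SE 0.11, adjusted p = 0.00166, and 0.0559 without the 1 h library of KO-2). At 3 h it was 1.04 with IL-1b (SE 0.11, adjusted p = 3.32e-08), 1.41 with TNF (SE 0.11, adjusted p = 3.69e-10) and 1.19 with LPS (SE 0.11, adjusted p = 2.17e-09). It was still higher at 8 h after TNF (0.67) and LPS (0.57), the only member called higher at that time, and its IL-1b change (0.26) passed only with the replicate block (adjusted p = 0.0488 by edgeR). Its lower level at 0.5 h after LPS (-0.53, adjusted p = 0.0322) was lost when any 1 of the 4 libraries behind it was left out.

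**Figure D3:**
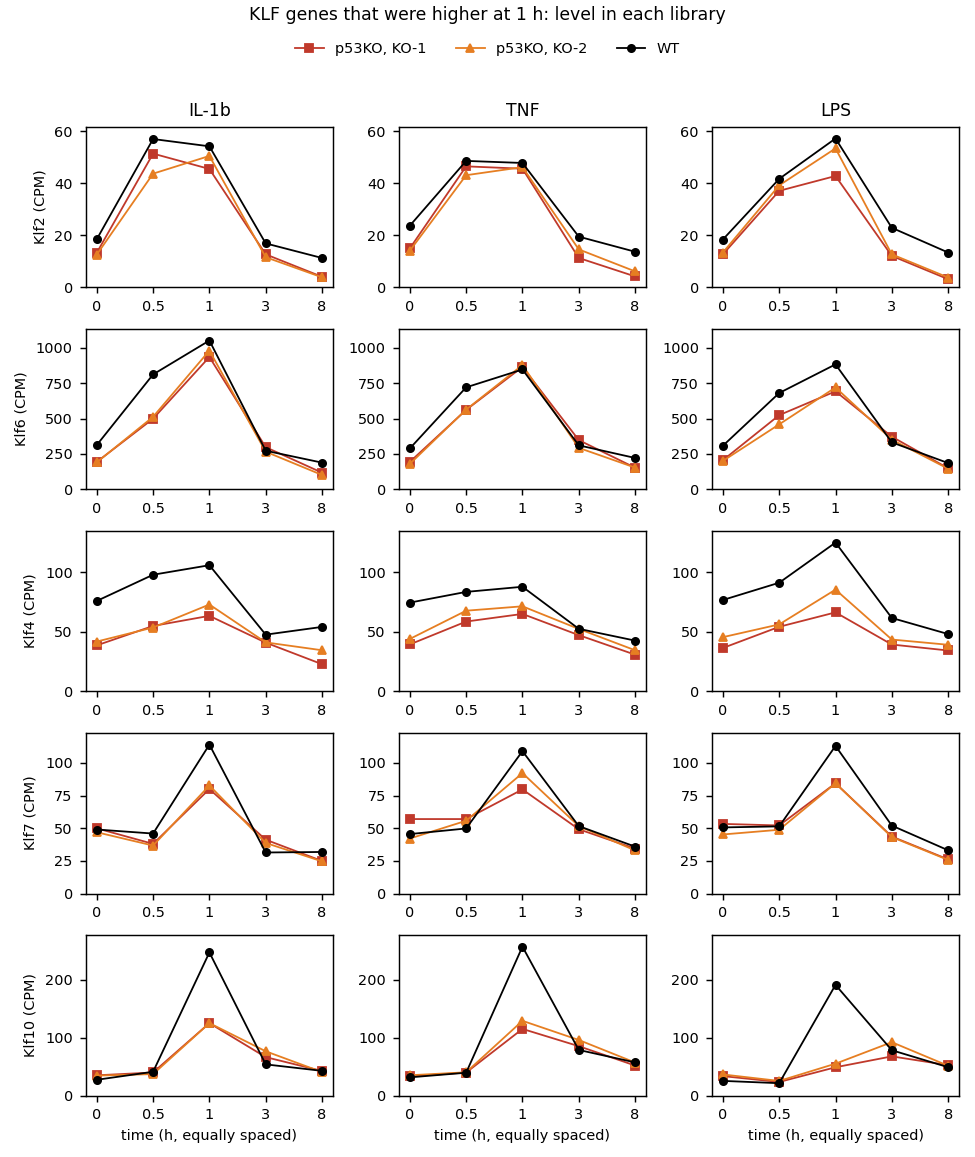
CPM (vertical axes, from 0) of Klf2, Klf6, Klf4, Klf7 and Klf10 over 0, 0.5, 1, 3 and 8 h (equally spaced) after IL-1b, TNF and LPS, with KO-1 in red, KO-2 in orange and WT in black, 1 library a point. At 1 h Klf10 stood at 125 and 125 CPM in p53KO and 247 CPM in WT for IL-1b, 115 and 129 CPM in p53KO and 257 CPM in WT for TNF, and 48.8 and 55.0 CPM in p53KO and 191 CPM in WT for LPS.

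Klf11 (ENSMUSG00000020653, mm9 chromosome 12, 25336236 to 25347639), the closest relative of Klf10 and also a Sin3a-binding repressor, moved the other way. At 3 h it stood in KO-1 and KO-2 at 4.74 and 4.98 CPM with IL-1b, 5.89 and 5.31 with TNF, and 4.49 and 4.15 with LPS, where 0 h had 10.8 and 11.3, 10.1 and 13.7, and 12.7 and 11.8 CPM. Every 3 h library lay below every 0 h library. The log2 change was -1.19 with IL-1b (SE 0.17, adjusted p = 5.92e-06 by edgeR), -1.09 with TNF (SE 0.18, adjusted p = 3.41e-05) and -1.50 with LPS (SE 0.18, adjusted p = 2.45e-07). At 8 h it stood at 8.55 and 9.56 CPM with IL-1b, 6.26 and 6.16 with TNF, and 7.35 and 7.79 with LPS, and only the TNF (-0.94) and LPS (-0.69) changes passed the test. A rise at 1 h after IL-1b (0.58, 15.7 and 17.4 CPM) was called but was lost with DESeq2 (adjusted p = 0.162) and without the 0 h library of KO-1 (adjusted p = 0.104 by edgeR) or the 1 h library of KO-2 (0.109). The changes at 1 h after TNF (0.41) and LPS (0.46) did not pass, the second of them except with the replicate block (adjusted p = 0.034 by edgeR).

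Klf5 (ENSMUSG00000005148, mm9 chromosome 14, 99697910 to 99712624), an activator that drives growth in smooth muscle and gut epithelium, had the lowest level of the family per kilobase at 0 h. In each p53KO line and series its highest library was at 3 h. At 3 h it stood at 17.3 and 14.5 CPM with IL-1b, 15.9 and 19.3 with TNF, and 13.0 and 15.2 with LPS, where 0 h had 8.23 and 6.50, 7.75 and 9.27, and 9.29 and 7.67 CPM. After LPS the 1 h libraries (12.9 and 13.5 CPM) overlapped those of 3 h. Every 3 h library was above every 0 h library. The log2 change at 3 h was 1.11 with IL-1b (SE 0.17, adjusted p = 1.02e-05 by edgeR), 1.04 with TNF (SE 0.18, adjusted p = 4.61e-05) and 0.74 with LPS (SE 0.17, adjusted p = 0.0012). After LPS it was also called higher at 1 h (0.64), a call lost with DESeq2 (adjusted p = 0.199) and without 3 of the 4 libraries in turn.

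Klf9, Klf13 and Klf3 changed little. Klf9 (ENSMUSG00000033863, mm9 chromosome 19, 23215716 to 23241401), a Sin3a-binding factor known as a glucocorticoid target, was lower at 8 h after each stimulus, at 38.7 and 40.9 CPM with IL-1b, 40.6 and 37.0 with TNF, and 39.6 and 40.0 with LPS, where the 0 h libraries had 47.5 to 51.3 CPM. The log2 changes were -0.30, -0.33 and -0.31 (edgeR adjusted p = 0.0196, 0.0118 and 0.00947), and with DESeq2 none passed (adjusted p = 0.103, 0.0606 and 0.0826). Klf13 (ENSMUSG00000052040, mm9 chromosome 7, 71031237 to 71083801), known for switching on Ccl5 late in activated T cells, was lower at 8 h after IL-1b (54.9 and 49.1 CPM, -0.44, adjusted p = 0.00346) and LPS (49.3 and 52.6 CPM, -0.33, adjusted p = 0.018), and higher at 3 h after TNF (82.6 and 102 CPM, 0.30, adjusted p = 0.0263), where the 0 h libraries of all 3 series had 62.9 to 79.0 CPM. Klf3 (ENSMUSG00000029178, mm9 chromosome 5, 65194628 to 65221368), the CtBP-binding repressor, was lower at 8 h after TNF (47.0 and 41.6 CPM, -0.34, adjusted p = 0.00927), against 59.9 and 53.4 CPM at 0 h. Each of these calls of Klf9, Klf13 and Klf3 was lost without 1 or another library.

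**Figure D4:**
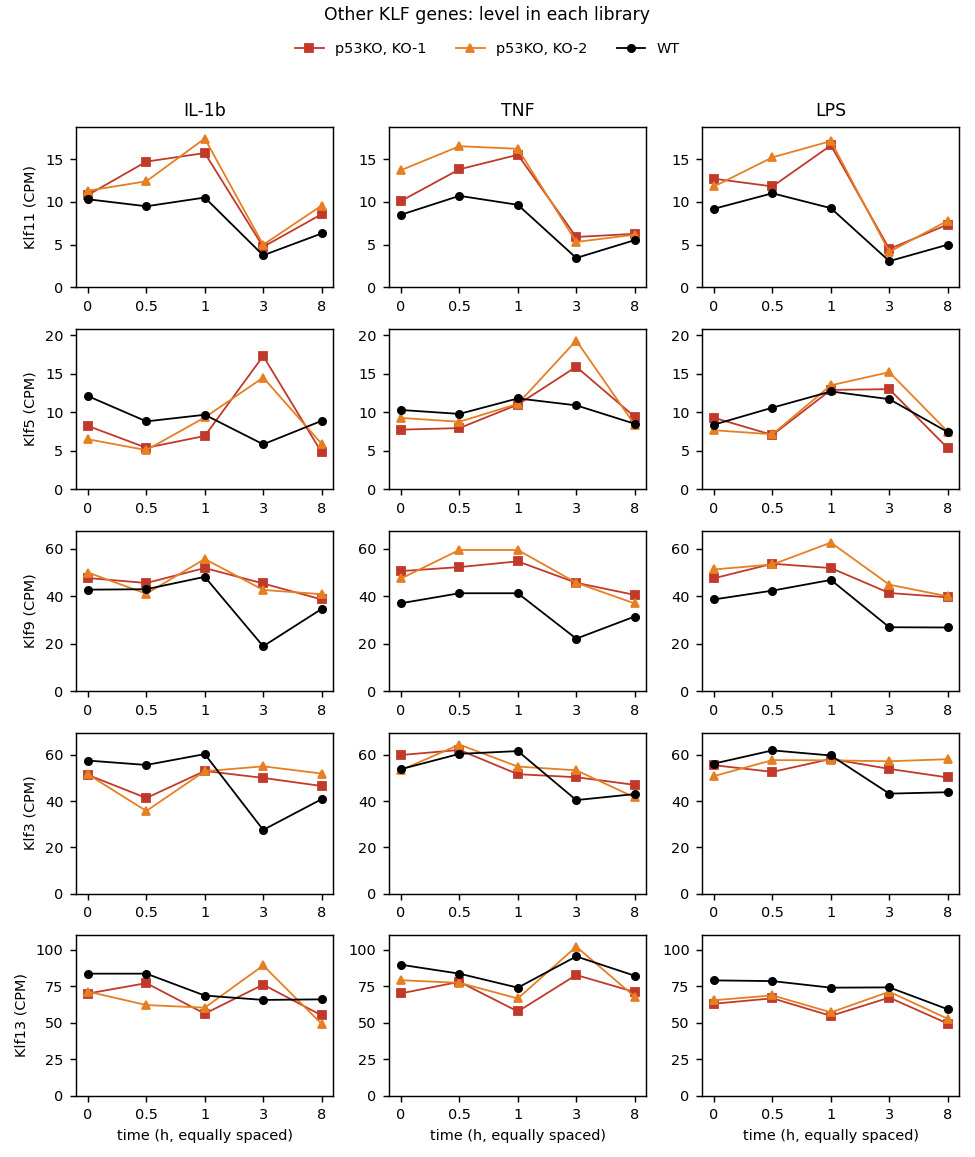
CPM (vertical axes, from 0) of Klf11, Klf5, Klf9, Klf3 and Klf13 over 0, 0.5, 1, 3 and 8 h (equally spaced) after IL-1b, TNF and LPS, with KO-1 in red, KO-2 in orange and WT in black, 1 library a point. Klf11 had its lowest libraries at 3 h in every series. Klf5 had its highest library of each p53KO line there, though its 1 h and 3 h libraries overlapped after LPS. In WT after IL-1b, Klf5, Klf9 and Klf3 stood at 5.85, 19.0 and 27.5 CPM at 3 h, in the library that stands apart by transcript length.

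From 3 h to 8 h most of the family fell in p53KO. After IL-1b 7 members were lower and Klf11 higher (35.5% of all genes were called), with TNF 7 were lower (25% of all) and with LPS 6 were lower and Klf11 higher (38.2% of all). The 6 members lower in all 3 series were Klf2, Klf5, Klf6, Klf7, Klf10 and Klf13. Klf2 changed by -1.61 with IL-1b, -1.40 with TNF and -1.82 with LPS on the log2 scale, Klf6 by -1.36, -1.06 and -1.29, and Klf5 by -1.57, -0.95 and -1.12. Klf11 rose again by 0.90 after IL-1b (SE 0.18, adjusted p = 0.000451 by edgeR) and 0.81 after LPS (SE 0.20, adjusted p = 0.00206), but after TNF its difference was 0.15 (SE 0.19, adjusted p = 0.622).

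The stimuli were then compared with each other in p53KO, as the difference of the changes from 0 h in an F test over the 4 times. Klf10 and Klf6 differed between LPS and IL-1b (2 members, 6.91% of all genes were called) and between LPS and TNF (2 members, 5.14% of all). These comparisons share the LPS libraries. For Klf10 the adjusted p by edgeR was 2.67e-08 against IL-1b and 1.89e-06 against TNF, and the difference sat at 1 h, where its change was lower after LPS by a log2 of -1.28 than after IL-1b (SE 0.15, adjusted p = 1.92e-05, 0.347% of all genes called) and -1.27 than after TNF (SE 0.16, adjusted p = 4.77e-05, 0.13% of all genes called). Klf6 likewise changed less at 1 h after LPS than after IL-1b, by -0.52 (SE 0.11, adjusted p = 0.0385). Its F test against TNF (adjusted p = 0.028) was lost in 8 of 20 fits that left out 1 library. Klf3 and Klf6 differed between IL-1b and TNF (2 members, 1.42% of all genes), Klf3 with an adjusted p of 0.0019 and a difference of -0.58 at 0.5 h (SE 0.13, 0.469% of all genes called), the time at which both IL-1b libraries stand apart by transcript length. The adjusted p of Klf3 was 0.00214 with the length and GC trend removed, 0.00304 without the KO-1 library and 0.0439 without the KO-2 library of that time. For Klf6 the IL-1b change was lower than the TNF change at 8 h by -0.53 (SE 0.12, adjusted p = 0.0383, 0.505% of all genes called), and its F test (adjusted p = 0.0247) was lost in 4 of 20 fits that left out 1 library. With the replicate block Klf7 was called between IL-1b and TNF as well (adjusted p = 0.0335). In the main fit, Klf2, Klf4, Klf5, Klf7, Klf9, Klf11 and Klf13 were not called in these 3 tests. With the 0 h libraries pooled, more members were called in each of the 3 tests. The share of all genes called in that fit was not computed.

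In WT, where each group is 1 library, the times were tested over the 3 stimuli together, with a term for the stimulus, on 13173 genes. The 3 series thus stand in for replicates, and stimuli that respond differently add to the spread. These p-values do not measure the spread between WT cultures. Klf2 and Klf6 rose at 0.5 h (2 members, 0.516% of all genes called) and Klf2, Klf4, Klf6, Klf7 and Klf10 at 1 h (5 members, 13.3% of all). The same 5 genes were called higher at 1 h in p53KO after each stimulus. Klf10 had the largest change of the family, 3.05 at 1 h (SE 0.17, adjusted p = 2.65e-08 by edgeR), followed by Klf6 with 1.61 (SE 0.10, adjusted p = 3.59e-08), Klf2 with 1.41 (SE 0.14, adjusted p = 4.62e-06), Klf7 with 1.21 (SE 0.12, adjusted p = 3.69e-06) and Klf4 with 0.48 (SE 0.10, adjusted p = 0.00335). At 3 h 5 members were called (1 higher, 4 lower, 45.3% of all genes): Klf10 was higher (1.34) and Klf11 (-1.42), Klf9 (-0.79), Klf3 (-0.59) and Klf4 (-0.47) were lower, and these calls held without the IL-1b library at 3 h. The 1 h call of Klf4 was lost without the LPS series (adjusted p = 0.0613 by edgeR). At 8 h 9 were called (1 higher, 8 lower, 28.1% of all genes, and 5 members without the TNF series), with Klf10 higher by 0.83 and the others lower by -0.28 (Klf13) to -0.73 (Klf11). Klf5 was not called at any time in WT, and its 3 h libraries stood at 5.85 CPM with IL-1b, 10.9 with TNF and 11.7 with LPS, where 0 h had 12.1, 10.3 and 8.40 CPM.

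Whether induction differed between the genotypes was tested per stimulus as the difference of the changes from 0 h, over the 4 times. The WT arm had 1 library a time and was assumed to vary like p53KO. A difference of the genotypes and one between this WT culture and other WT cultures therefore cannot be told apart. Klf10, Klf2 and Klf6 differed after each stimulus. In all, 7 members were called with IL-1b (5.74% of all genes), 3 with TNF (0.462%) and 3 with LPS (2.66%). After IL-1b, Klf3, Klf5, Klf7 and Klf9 were called as well, but without the WT library at 3 h 1 member was left, Klf10. The fit without it tests only the other times and cannot show a difference that sits at 3 h. With the replicate block, Klf4 (adjusted p = 0.0158 by edgeR) and Klf13 (adjusted p = 0.0378) were called after IL-1b too, in a fit that keeps that library.

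Klf10 was induced less at 1 h in p53KO than in WT. It stood at 125 and 125 CPM in p53KO and 247 CPM in WT with IL-1b, at 115 and 129 CPM in p53KO and 257 CPM in WT with TNF, and at 48.8 and 55.0 CPM in p53KO and 191 CPM in WT with LPS. At 0 h it was the other way round, with 33.1 to 36.4 CPM over the 6 p53KO libraries and 25.3 to 31.4 CPM over the 3 WT libraries. Both p53KO libraries lay below WT at 1 h and above it at 0 h in every series. The difference in log2 change at 1 h was -1.34 with IL-1b (SE 0.19, adjusted p = 0.000642 by edgeR), -1.19 with TNF (SE 0.19, adjusted p = 0.00503) and -2.35 with LPS (SE 0.19, adjusted p = 9.63e-08). Few genes were called in these single contrasts, 0.0866% of all with IL-1b, 0.0722% with TNF and 0.137% with LPS. At 3 h the genotypes were closer, and Klf10 stood at 66.3 and 76.4 CPM in p53KO and 53.8 CPM in WT with IL-1b, at 85.2 and 95.9 CPM in p53KO and 78.7 CPM in WT with TNF, and at 67.6 and 92.1 CPM in p53KO and 78.2 CPM in WT with LPS. The difference over the 4 times had an adjusted p of 6.07e-05 with IL-1b, 0.00043 with TNF and 2.59e-08 with LPS, and these 3 calls held in all alternatives run. None of these alternatives left out a WT library at 1 h, so they cannot show how far the calls rest on those libraries.

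Klf2 stood lower in p53KO than in WT at 8 h with each stimulus. At 8 h after LPS it stood at 3.15 and 3.80 CPM in p53KO and 13.4 CPM in WT, at 4.07 and 3.87 CPM in p53KO and 11.3 CPM in WT after IL-1b, and at 4.22 and 6.16 CPM in p53KO and 13.7 CPM in WT after TNF. All 6 p53KO libraries were below all 3 WT libraries, as they already were at 0 h (12.6 to 15.0 CPM in p53KO, 18.4 to 23.7 CPM in WT). The difference in change from 0 h passed the test at 8 h after LPS (-1.45, SE 0.28, adjusted p = 0.00628 by edgeR, 0.931% of all genes called) and did not at 8 h after IL-1b or TNF. Over the 4 times the adjusted p was 0.000599 after LPS, 0.0177 after IL-1b and 0.0245 after TNF, and the last 2 were lost in 2 fits each that left out 1 library. Klf6 kept more of its rise in p53KO at 3 h, with differences in log2 change of 0.75 with IL-1b (SE 0.14, adjusted p = 0.00324), 0.68 with TNF (SE 0.14, adjusted p = 0.0388, 0.217% of all genes called) and 0.72 with LPS (SE 0.14, adjusted p = 0.00882, 0.83% of all genes called), and its test over the 4 times with LPS (adjusted p = 0.0256) was lost in 2 fits that left out 1 library. Its levels then were 298 and 266 CPM in p53KO and 273 CPM in WT with IL-1b, 348 and 293 CPM in p53KO and 311 CPM in WT with TNF, and 372 and 351 CPM in p53KO and 332 CPM in WT with LPS, so that the genotypes were close at 3 h while p53KO started from 180 to 206 CPM at 0 h and WT from 289 to 313 CPM.

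After IL-1b at 3 h, Klf5 stood at 17.3 and 14.5 CPM in p53KO and 5.85 CPM in WT, Klf9 at 45.4 and 42.7 CPM in p53KO and 19.0 CPM in WT, and Klf3 at 50.0 and 55.0 CPM in p53KO and 27.5 CPM in WT. The differences in change were 2.15 for Klf5 (SE 0.31, adjusted p = 0.000463 by edgeR), 1.02 for Klf9 (SE 0.17, adjusted p = 0.00143) and 1.09 for Klf3 (SE 0.17, adjusted p = 0.000836), with 3.37% of all genes called. All 3 rest on the single WT library whose values fall with transcript length. Over the 3 times that remain without it, the adjusted p was 0.877 for Klf5, 0.935 for Klf9, 0.108 for Klf3, 0.0958 for Klf6, 0.0633 for Klf2 and 0.611 for Klf7. With the length and GC trend removed from each library, Klf3, Klf5 and Klf9 were still called and Klf7 was not (adjusted p = 0.0687).

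The genotypes were also compared in overall level, on counts summed over the 15 libraries of WT, KO-1 and KO-2, which leaves 1 residual degree of freedom. WT is a single sum with no spread of its own, and the spread comes from KO-1 and KO-2 alone, so a difference of the genotypes and one between this WT culture and other WT cultures cannot be told apart. On 12918 genes, 8 of the 10 members passed the test (2 higher, 6 lower in p53KO), as 40.4% of all genes did. Klf4 was lower by -0.59 on the log2 scale (SE 0.08, adjusted p = 0.00113 by edgeR), with -0.69 in KO-1 and -0.49 in KO-2, and at 0 h it stood at 36.5 to 45.6 CPM in p53KO and 74.6 to 76.8 CPM in WT. Klf11 was higher by 0.57 (SE 0.10, adjusted p = 0.00342) and Klf9 by 0.43 (SE 0.06, adjusted p = 0.00109). Klf10 was lower by -0.44 (SE 0.05, adjusted p = 0.000562) over all libraries, but in the 0 h libraries alone it was higher by 0.32 (adjusted p = 0.0251), and in a fit on single libraries it did not pass (-0.24, adjusted p = 0.0588). Klf2 (-0.27), Klf6 (-0.23), Klf13 (-0.20) and Klf7 (-0.16) were lower by less. In the 0 h libraries alone the difference was -0.57 for Klf2 and -0.64 for Klf6, that of Klf7 was 0.02 (adjusted p = 0.937), and that of Klf11 no longer passed (0.32, adjusted p = 0.108). Klf3 (0.05, adjusted p = 0.49) and Klf5 (-0.07, adjusted p = 0.565) did not pass. Of the 11 fibroblast markers 7 passed the same test (3 higher, 4 lower), with S100a4 at -3.29 and Thy1 at -0.85. The summed epithelial markers did not overlap between the genotypes (26.8 to 51.2 CPM in p53KO, 6.31 to 15.4 CPM in WT) and the macrophage markers did (234 to 438 CPM in p53KO, 346 to 535 CPM in WT), and their part in these differences was not tested.

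Across the 30 p53KO libraries, with the mean of each line subtracted, the members fell into those that moved together and those that did not. The correlation of log2 CPM between 2 members had a median of 0.365 over the 45 pairs and exceeded 0.5 in 17. The pairs Klf4 and Klf6 (r = 0.937), Klf2 and Klf6 (r = 0.92) and Klf2 and Klf4 (r = 0.914) were the most alike, and Klf5 and Klf11 the least (r = -0.416). In the 15 WT libraries these pairs had r = 0.881, 0.983, 0.885 and 0.322, the last of opposite sign. Outside the family, each member's closest genes among 9546 candidates with a mean log2 CPM of at least 3 were as follows. Klf2 was most like Egr1 (r = 0.994 in p53KO, 0.945 in WT) and Ccn1 (0.973 in p53KO, 0.977 in WT), both immediate early genes. Klf6 was most like Btg2 (0.983 in p53KO, 0.98 in WT) and Arc (0.978 in p53KO, 0.972 in WT), and Klf4 like Dnajb4, a heat shock protein gene (0.942 in p53KO, 0.926 in WT), and Ccn1 (0.93 in p53KO, 0.884 in WT). Klf10 was most like Ifrd1 (0.924 in p53KO, 0.946 in WT) and Brd2 (0.9 in p53KO, 0.918 in WT), Klf7 like Filip1l (0.931 in p53KO, 0.968 in WT) and Dlc1 (0.927 in p53KO, 0.855 in WT), and Klf11 like the homeobox gene Meis2 (0.951 in p53KO, 0.969 in WT) and Mapkap1 (0.948 in p53KO, 0.915 in WT). Klf5 was most like Fam84b and Aff1 in p53KO (0.923 and 0.922), with 0.29 and 0.477 in WT. Klf9 was most like Dlg1 (0.917 in p53KO, 0.736 in WT) and Robo1 (0.913 in p53KO, 0.697 in WT). Klf13 (Ehbp1l1, 0.839 in p53KO and 0.338 in WT, and Tle3, 0.833 in p53KO and 0.66 in WT) and Klf3 (Ptprg, 0.783 in p53KO and 0.575 in WT, and Xrn1, 0.761 in p53KO and 0.735 in WT) had the loosest of these in p53KO. These values share libraries and depth and describe the course over time only.

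Of the 16 remaining KLF and SP genes, 9 passed the filter. After IL-1b, TNF and LPS, 4 (1 higher, 3 lower), 3 (1 higher, 2 lower) and 3 (1 higher, 2 lower) of them were called at 3 h in p53KO, where 42.7%, 36% and 44.1% of all genes were, and none at 1 h. Klf15, a glucocorticoid-induced member, was called lower at 3 h after each stimulus, at 0 and 0.356 CPM with IL-1b, 0.115 and 0.408 with TNF, and 0.257 and 0.377 with LPS, where 0 h had 1.23 to 1.69 CPM over the 6 libraries. In WT it stood at 0.183, 0.0883 and 0.139 CPM at 3 h, and at 2.55, 1.05 and 1.36 CPM at 0 h. These 3 h values are 0 to 3 reads a library, and the adjusted p by edgeR in p53KO was 0.000678, 0.00759 and 0.00518. Sp7, called after IL-1b at 3 h, had no reads there in either p53KO library and 0.582 and 0.263 CPM at 0 h. Sp2 was lower at 8 h after IL-1b (-0.72) and LPS (-0.88).

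Among genes that act on or with KLFs, 9, 8 and 9 of 13 upstream regulators were called at 3 h after IL-1b (7 higher, 2 lower), TNF (6 higher, 2 lower) and LPS (6 higher, 3 lower), with list medians of 0.29, 0.24 and 0.13 beside -0.0224 to -0.00988 over all genes. Of all genes 42.7%, 36% and 44.1% were called then, and 21%, 18.4% and 21.9% were higher. Srf, whose protein drives immediate early transcription, was higher at 1 h by 0.69, 0.68 and 0.94 and lower at 8 h by -0.67, -0.45 and -1.03. Mef2c, a MEF2 factor of the pathway that induces Klf2 in endothelial cells, was lower at 3 h by -1.63, -1.01 and -1.69, and Tgfb1, the cytokine for which Klf10 and Klf11 are early genes, higher at 3 h by 1.04, 1.01 and 1.26. Of 13 corepressors, coactivators and ubiquitin ligases, 6 (4 higher, 2 lower), 3 (2 higher, 1 lower) and 5 (4 higher, 1 lower) were called at 3 h, with medians of 0.017, 0.015 and -0.033, at shares near or below those of all genes (42.7%, 36% and 44.1%). Sin3a itself was higher at 8 h by 0.58, 0.46 and 0.72, and lower at 1 h after TNF (-0.28) and LPS (-0.31) and at 3 h after LPS (-0.42). In WT it was lower at 1 h (-0.50) and not called at 8 h (0.13). Of 11 tested genes known in other cells as KLF targets, 8 were called at 3 h after each stimulus (7 higher, 1 lower each time), with medians of 0.53, 0.44 and 0.40. Among all genes 21%, 18.4% and 21.9% were higher. The lists were chosen with earlier results of these data known. Their counts and medians beside those of all genes are therefore a description and no test of the lists. Ccl5, a chemokine gene that Klf13 switches on in T cells, rose most: at 8 h it stood at 8.03 and 17.4 CPM with IL-1b, 15.1 and 22.1 with TNF, and 150 and 198 with LPS, where 0 h had 0.843 to 2.16 CPM. Cdkn1a, a cell cycle inhibitor gene bound by KLFs and by p53, was higher at 3 h by 1.06, 1.14 and 1.99 in p53KO, and its overall level was lower in p53KO than in WT by -3.63 (SE 0.07, adjusted p = 3.17e-07 by edgeR).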

How the data were processed

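RNA-seq of 45 libraries of mouse embryonic fibroblasts (30 p53KO, 15 WT) was used as the whole-number read counts per gene that the authors deposited. Per the labels' protocols, libraries were made from polyadenylated RNA with a stranded kit and read from both ends. Per the submitters' processing notes, STAR, featureCounts, DESeq and the build mm9 were used. Their versions, the strand setting and the annotation release are not given in the sources used here, so reads of a gene and of one overlapping it on the other strand may not be separated. Gene symbols were matched for 32919 of 37991 IDs, and 5 categories that name no gene, with 24.65% of all counts, were left out.

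The 13851 genes that reached 1 CPM in 2 or more libraries were fitted with edgeR 4.0.16 (R 4.3.3, limma 3.58.1) by the quasi-likelihood method, with TMM scaling (factors 0.8886 to 1.072), 1 term for each of 30 groups and 15 residual degrees of freedom, so that WT groups of 1 library borrow the spread of p53KO. P-values were adjusted by Benjamini-Hochberg over all tested genes of a contrast and called under 0.05. CPM values are TMM-scaled, fold changes are on a log2 scale, and the correlations used log2 CPM with a prior count of 2. WT alone was fitted by time and stimulus, and the overall level on counts summed over each line. Agreement was measured for the 15 p53KO pairs of a group and for 9 pairs of 0 h libraries of a line. None of these pairs agreed within counting noise (chi-square per degree of freedom 1.35 to 8.4). The fit of the groups, that of WT alone and that of the summed counts were run on simulated data. The simulated libraries were independent and had no effect of line or transcript length, so they cannot show how the fits behave with such effects. The tests of induction between genotypes and the alternatives were not part of this. The titles name KO-1 and KO-2 in every p53KO group and the design text calls them biological replicates, so libraries of the same name were taken as 1 line. The deviations of KO-1 from the group means correlated between groups with a median r of 0.191 (-0.169 to 0.504, over 0.1 in 73 of 105 pairs of groups, 9632 genes). The main fit has no term for the line, and a fit with the line as a replicate block is given where it changes a call.

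The alternatives were DESeq2 1.42.0, its size factors in edgeR, no filter, a filter of 5 CPM, removal of each library's trend on transcript length and GC content (MASS 7.3.60.0.1, 97.81% of genes matched), a replicate block, p53KO alone, pooled 0 h libraries, and leaving out libraries or series. Fits without the WT library at 3 h after IL-1b, and the level without the IL-1b libraries at 0.5 and 3 h, were added after seeing the data. The 10 members and all lists were chosen with earlier results of these data known. Of each list, a gene was named where it passed the test with the largest log2 change of its list in a contrast, up to 2 a list. The pattern neighbours were the 2 genes outside the KLF and SP families with the highest r.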

Additional observations from a re-analysis of the deposited data

Results flagged for a closer look

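Comparisons of the response over the 4 times singled out 7 of the 10 KLF genes, each by an F test of the difference itself with edgeR's adjusted p. Klf5, Klf7 and Klf9 entered only through the IL-1b test between genotypes. Of all genes, 6.91% were called for LPS against IL-1b, 5.14% for LPS against TNF and 1.42% for IL-1b against TNF. Between p53KO and WT the shares were 5.74% with IL-1b, 0.462% with TNF and 2.66% with LPS. Between stimuli in p53KO, Klf10 differed between LPS and IL-1b (adjusted p = 2.67e-08) and between LPS and TNF (1.89e-06), with its 1 h level at 48.8 and 55.0 CPM after LPS, 125 and 125 CPM after IL-1b, and 115 and 129 CPM after TNF. Klf6 differed between LPS and IL-1b (2.59e-05), LPS and TNF (0.028) and IL-1b and TNF (0.0247), and the last 2 were lost in 8 and 4 of 20 fits that left out 1 library. Klf3 differed between IL-1b and TNF (0.0019), and with the length and GC trend removed its adjusted p was 0.00214.

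Between p53KO and WT, induction by IL-1b differed for Klf3 (adjusted p = 4.9e-05 by edgeR), Klf10 (6.07e-05), Klf5 (0.000176), Klf9 (0.000405), Klf6 (0.000606), Klf2 (0.0177) and Klf7 (0.0233). Without the WT library at 3 h, which stands apart by transcript length, Klf10 alone was called. That fit tests only the other times, so it cannot show a difference that sits at 3 h. With the length and GC trend removed from each library, Klf3, Klf5 and Klf9 were still called and Klf7 was not. Induction by TNF differed for Klf10 (0.00043), Klf6 (0.0177) and Klf2 (0.0245), and induction by LPS for Klf10 (2.59e-08), Klf2 (0.000599) and Klf6 (0.0256). WT had 1 library a time in each of these tests.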

How the results depend on the processing

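The single-gene values kept direction and side of the threshold in 1937 cases under settings that kept all p53KO replicates. In 51 a value newly passed, in 31 it no longer passed, and in 27 it changed sign. Of those 27, only the overall level of Klf10 was called on both sides. Leaving out single p53KO libraries gave 1402, 7, 64 and 27. The cause was not tested unless the setting itself has fewer samples. Depth limits Klf11 and Klf2 most, with 22 and 30 counts in their lowest libraries.

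With the 0 h libraries pooled, the members called went to 8 (TNF at 1 h), 5 (LPS against IL-1b), 5 (LPS against TNF), 7 (IL-1b against TNF) and 5 (p53KO against WT induction by TNF), and the share of all genes called in this fit was not computed. Without the WT library at 3 h after IL-1b, 1 member was called for p53KO against WT induction by IL-1b, and without the TNF series 5 were called in WT at 8 h. Leaving out 1 library gave 2 to 3 members after IL-1b at 0.5 h, 4 to 7 after TNF at 8 h, 1 to 2 for LPS against TNF and 1 to 3 for IL-1b against TNF. For the fits that left out libraries or series the share of all genes called was not computed either.

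Changes of sign, in log2, were as follows. With the length and GC trend removed: Klf13 after IL-1b at 0.5 h 0.105, Klf7 after TNF at 3 h -0.018, and Klf7 in WT at 0.5 h -0.0063. With 0 h pooled, after IL-1b: Klf3 -0.017 and Klf5 -0.0043 at 1 h, and Klf3 -0.030 at 3 h. With 0 h pooled, Klf5 was 0.065 at 0.5 h after TNF, and Klf13 after LPS was -0.043 at 0.5 h and -0.011 at 3 h. In WT without the IL-1b series, Klf5 was 0.13 at 0.5 h, and at 3 h Klf2 was 0.011, Klf5 0.28, Klf7 0.11 and Klf13 0.012. In WT without the TNF series, Klf7 was -0.029 and Klf13 0.0048 at 0.5 h, and Klf2 0.11 and Klf6 -0.017 at 3 h. In WT without the LPS series, Klf5 was -0.087 at 1 h and Klf6 -0.016 at 3 h. In WT at 3 h without the IL-1b library, Klf2 was 0.097, Klf5 0.15, Klf7 0.10 and Klf13 0.016. In level at 0 h alone, Klf3 was -0.066, Klf7 0.015 and Klf10 0.32.

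Uncalled changes that crossed 0 when 1 library was left out ranged, after IL-1b, from -0.19 to 0.13 (Klf13, 0.5 h), -0.090 to 0.34 (Klf5, 1 h), -0.033 to 0.098 (Klf3, 3 h), -0.028 to 0.087 (Klf4, 3 h) and -0.15 to 0.013 (Klf3, 8 h). After TNF they ranged at 0.5 h from -0.13 to 0.13 (Klf5), -0.017 to 0.42 (Klf7) and -0.027 to 0.15 (Klf13), at 3 h from -0.36 to 0.0023 (Klf2) and -0.18 to 0.26 (Klf7), and at 8 h from -0.035 to 0.22 (Klf5). After LPS they ranged at 0.5 h from -0.013 to 0.12 (Klf3), -0.076 to 0.16 (Klf7) and -0.049 to 0.31 (Klf11), at 3 h from -0.14 to 0.19 (Klf4), at 8 h from -0.080 to 0.13 (Klf3) and -0.31 to 0.014 (Klf4), and from 3 to 8 h from -0.15 to 0.066 (Klf3).

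With a replicate block for KO-1 and KO-2, the members called were 5 and 7 after IL-1b at 0.5 and 8 h, 6 and 8 after TNF at 3 and 8 h, 4 and 7 after LPS at 0.5 and 1 h, 3 for IL-1b against TNF and 9 for p53KO against WT induction by IL-1b. The members gained are named in the report, and the block changed no other call. The share of all genes called with the block was not computed, so a gain over all genes and one among the members cannot be told apart.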
